A study of Rattus norvegicus with 6 samples.

Results

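The response of cultured rat microglia to glioma-conditioned medium was read at every open chromatin region that the authors had counted. All 129499 counted regions were taken, without selection, from the 2 libraries of cultures given the medium (GCM) and the 2 libraries of untreated cultures (UNTR), which are 4 of the 6 libraries of the series. A filter on low counts left 126284 regions for testing. The 3215 regions left out were short, with a median width of 45 bp and none wider than 177 bp.

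Every culture was grown from the cortices of 1-day-old Wistar rat pups, with 10 to 15 pups pooled per culture. Microglia were shaken off after 2 weeks, replated in medium with 10% serum and rested for 48 h. GCM cultures then received, for 6 h, medium that had stood for 24 h on cells of the rat glioma line C6, and UNTR cultures received no stimulus. The labels do not say whether UNTR cultures were given fresh, unconditioned medium at the same time, so conditioning and a medium change cannot be told apart. The remaining libraries, from cultures given 100 ng/mL of lipopolysaccharide (LPS), served here to sort regions into classes without using the libraries under comparison, and they shared the estimate of spread in the test. A fit of the 4 compared libraries alone called 2270 regions increased and 449 decreased, where the fit of all 6 called 1693 and 292. Each group held 2 independent cultures, and p-values measure the spread between cultures of this kind.

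Microglia are the resident immune cells of the brain and are abundant in gliomas, where factors released by tumour cells alter what they express. Promoters and enhancers in use are kept free of nucleosomes by bound proteins, and the enzyme DNase I cuts such DNA far more readily than packed DNA. A count of cut ends in a region is therefore a measure of its accessibility. In mixed cell populations a higher count can come from more cells with the region open or from a region more open in each cell, and counts do not separate these. The files give regions no gene names, so regions are named by position on rat genome build rn5 (first base counted from 1), and the cell type was not checked against marker genes.

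UNTR replicates 1 and 2 had 11.1 M and 7.14 M counts in regions, and GCM replicates 1 and 2 had 8.26 M and 12.1 M. These were 11.7% and 10.9% of the reads of the UNTR libraries, and 13.7% and 10.0% of those of the GCM libraries. The share in regions thus differed more between the GCM cultures than between the UNTR cultures. A typical region held 56, 36, 41 and 64 counts (medians, in that order). Levels are given as CPM, counts divided by the library's total over all regions (in units of 1e6), with composition correction.

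GCM mostly opened chromatin, and it did so at few regions. Of the regions tested 1.57% changed (edgeR, adjusted p under 0.05). Accessibility rose at 1693 regions (1.34%) and fell at 292 (0.231%). The rises had log2 changes from 0.485 to 2.54 and the falls from -2.06 to -0.47. Both GCM libraries lay above both UNTR libraries in 1691 of the 1693 risen regions, and below them in all 292 fallen ones. Over all regions tested, the 2 groups did not overlap in 46.1%. Increased regions had a median level of 3.85 CPM in UNTR and 7.21 CPM in GCM libraries, where all regions tested had medians of 5.18 and 5.28 CPM. The same libraries made the calls, which favours regions that read low in UNTR, so these medians do not show a low start. In the LPS libraries, outside the contrast, the medians were 5.77 CPM for increased and 5.30 CPM for all regions. Decreased regions went from a median of 4.24 to 2.12 CPM. Fewer regions passed with a library left out, where the lone library of a group was assumed to vary like those of the other groups. edgeR found 12 rises and 0 falls (5874 at an unadjusted p under 0.05) without UNTR replicate 1, 86 and 1 without UNTR replicate 2, 27 and 6 without GCM replicate 2, and 1469 and 104 without GCM replicate 1. Calls were lost without the change itself shrinking in every case: the log2 change at 19047125 on chromosome 12 was -1.29 with all libraries and -1.58 to -1.12 with each left out. DESeq2 called 3 rises and 0 falls (1090 at an unadjusted p under 0.05), and scaling to whole-library totals left 365 rises and 64 falls.

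The rises of smallest p started low and ended above the typical region. At 32571458 to 32571843 on chromosome 13, UNTR cultures held 2.51 and 2.38 CPM and GCM cultures 8.23 and 10.0 CPM. The log2 change was 1.91 ± 0.219 (SE; edgeR, 2 libraries per group, adjusted p = 4.4e-06). Both GCM cultures were far above both UNTR cultures, and neither UNTR library had a hotspot (a stretch of dense cutting listed by the authors) there, while both GCM libraries did. At 133591686 to 133592383 on chromosome 4, a wider region, levels were 2.78 and 1.96 CPM untreated and 8.23 and 10.3 CPM with GCM. The change was 1.94 ± 0.225 (SE; edgeR, 2 libraries per group, adjusted p = 4.4e-06). Of the 13 increased regions named here, only these kept the call under all 17 alternatives that gave them a value.

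Of the 4 increased regions next in order of p, the region at 235868703 to 235869239 on chromosome 1 held 1.61 and 3.08 CPM untreated and 8.23 and 8.77 CPM with GCM. The region at 4298134 to 4298405 on chromosome 6 held 1.25 and 1.54 CPM untreated and 6.02 and 5.74 CPM with GCM. In both, the groups lay well apart although the UNTR cultures of the first differed from each other. The region at 88619483 to 88620050 on chromosome 15 held 3.13 and 4.48 CPM untreated and 9.59 and 10.7 CPM with GCM, and the region at 172034520 to 172035085 on chromosome 4 held 4.21 and 5.05 CPM untreated and 11.4 and 10.3 CPM with GCM. In both of these the UNTR levels lay below the median of all regions and the GCM levels were over 2-fold higher. A region enters the count table only with hotspots in both libraries of some group. The region on chromosome 15 had these only in GCM. Log2 changes in these 4 ran from 1.25 to 2.09, with adjusted p from 5.77e-06 to 0.000249 (edgeR), and all 4 lost the call without UNTR replicate 1.

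**Figure D1:**
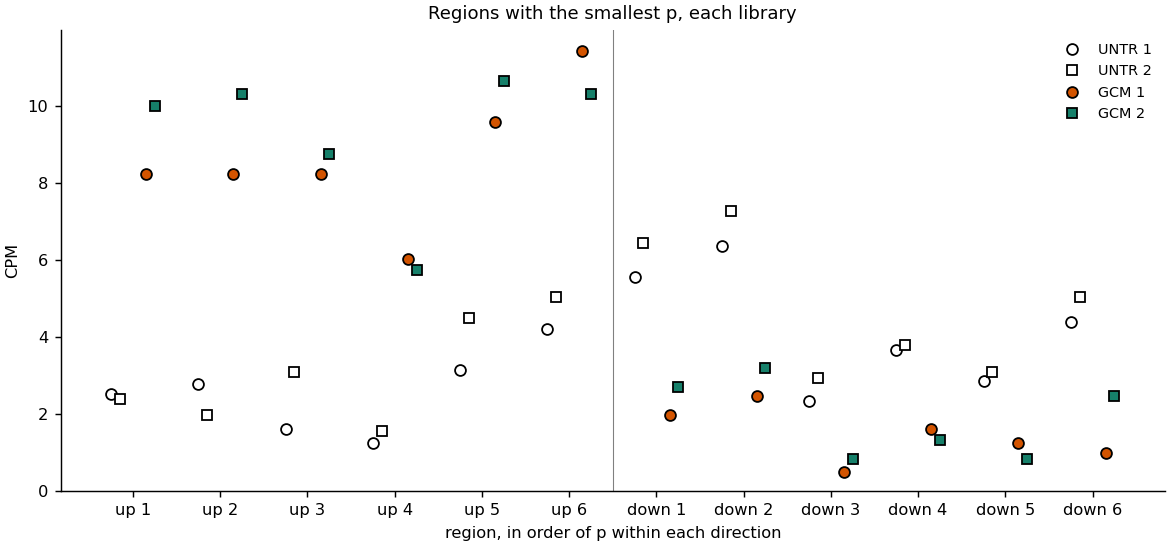
Level in CPM (vertical axis) in each UNTR and GCM library at 6 increased and 6 decreased regions, those of smallest p in each direction. Regions were chosen only where both GCM points lie on the same side of both UNTR points. The first increased region has 2.51 and 2.38 CPM untreated and 8.23 and 10.0 CPM with GCM.

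The most significant falls were mostly at short regions and ended at few counts. At 19047125 to 19047414 on chromosome 12 the UNTR cultures held 5.55 and 6.45 CPM and the GCM cultures 1.97 and 2.70 CPM, and at 590363 to 590884 on the same chromosome they held 6.36 and 7.29 CPM against 2.46 and 3.20 CPM. The log2 changes were -1.29 ± 0.229 and -1.21 ± 0.226 (SE; edgeR, 2 libraries per group, adjusted p = 0.00199 and 0.00321). All 6 of these regions had a hotspot in both UNTR libraries and in no GCM or LPS library. They thus entered the table through UNTR, where they were high, and the hotspots are no separate support for the falls. The region at 110576053 to 110576298 on chromosome 8 held 3.67 and 3.78 CPM untreated and 1.60 and 1.31 CPM with GCM, and the region at 45173376 to 45173691 on chromosome 10 held 4.39 and 5.05 CPM against 0.983 and 2.46 CPM, where the GCM cultures differed from each other. The other two lay on chromosome 13. At 111023695 to 111023905 levels were 2.33 and 2.94 CPM untreated and 0.492 and 0.819 CPM with GCM, and at 110589251 to 110589486 they were 2.87 and 3.08 CPM and 1.23 and 0.819 CPM. Each of the 6 lost the call without either UNTR replicate and in DESeq2.

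Width classes differed in how many regions were called and in the size of called changes. Regions were split into 5 classes of about equal number by width, from 15 to 258 bp in the narrowest to 670 to 4673 bp in the widest. The share increased was 0.903%, 1.27%, 1.42%, 1.87% and 1.24% from narrow to wide, so it was highest in the class of 435 to 669 bp and not in the widest. The share decreased was 0.346% and 0.345% in the 2 narrower classes and 0.131% in the widest. Among regions with a hotspot in both LPS libraries it was 0.0641%, 0.121% and 0.123% in these classes, so that order was not kept. Width moved with depth: the median count per region and library was 20.5 in the narrowest class and 169 in the widest. Called increases had a median log2 change of 1.29 in the narrowest class and 0.64 in the widest, and 223 of 230 against 9 of 312 exceeded 2-fold. The part of depth in these differences was not tested.

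A narrow and a wide region in each direction are given as examples. The region at 69088307 to 69088509 on chromosome 10, 203 bp wide, held 0.806 and 0.561 CPM untreated and 2.70 and 4.01 CPM with GCM, a change of 2.28 ± 0.352 on the log2 scale (SE; edgeR, adjusted p = 0.000448). The region at 156223713 to 156224535 on chromosome 6, 823 bp wide, held 4.84 and 5.33 CPM untreated and 11.7 and 11.6 CPM with GCM, a change of 1.20 ± 0.174 (adjusted p = 0.000249, edgeR). Both groups were tight in the wide region, and in the narrow region GCM replicate 2 was well above GCM replicate 1. Among decreased regions, the one at 23244706 to 23244886 on chromosome 1 (181 bp) fell from 1.70 and 2.52 CPM to 0.492 and 0.574 CPM, and the one at 233348359 to 233349107 on the same chromosome (749 bp) from 9.58 and 10.5 CPM to 4.67 and 6.23 CPM. The wide one was the more accessible of these in every library, and its log2 change was -0.83 against -1.88 in the narrow one. Both wide regions had a hotspot in both LPS libraries. The narrow ones did not and entered the table through the group where they were high, so these examples do not measure an effect of width.

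**Figure D2:**
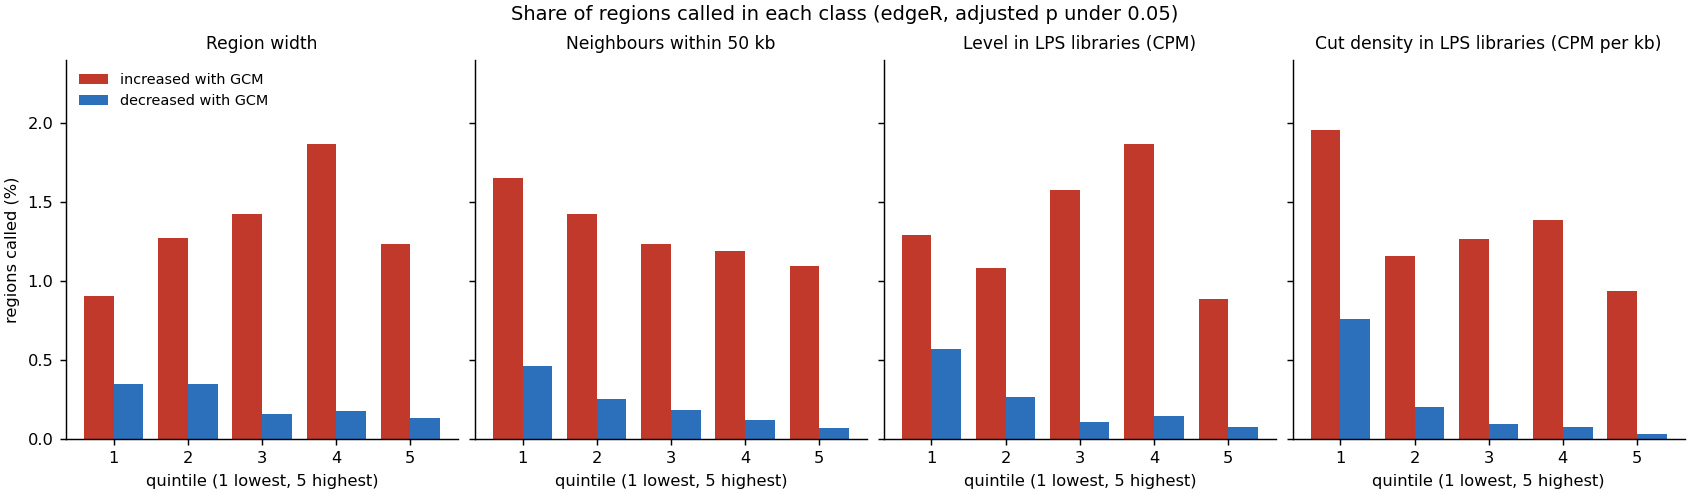
Percent of regions called increased or decreased with GCM (vertical axis, edgeR, adjusted p under 0.05) in 5 classes of width, of neighbours within 50 kb, of level and of cut density in the LPS libraries. Both increases (1.96%) and decreases (0.756%) are most frequent in the class of lowest cut density, and by width increases peak at 1.87% in the fourth class.

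The median change of a width class depended on which GCM library was read. GCM replicate 1 against UNTR replicate 1 had a median log2 difference of -0.046 in the narrowest class and 0.044 in the widest. GCM replicate 2 against UNTR replicate 2 had 0.053 and -0.073. With the UNTR libraries exchanged the values were -0.046 and 0.040 for GCM replicate 1 and 0.046 and -0.070 for GCM replicate 2. The GCM libraries thus drifted in opposite directions with width whichever UNTR library they were set against. The widest class took 49.9% of the counts in GCM replicate 1 and 47.5% in GCM replicate 2, and 49.3% and 49.2% in the UNTR libraries. Measured within each library as the median log2 CPM of the widest class minus that of the narrowest, the contrast was 2.97 and 2.95 in UNTR and 3.08 and 2.90 in GCM cultures, so both UNTR values lay between the GCM values (exact permutation test, two-sided, p = 1.0). A design of 2 against 2 cannot give p below 0.333. The GCM library with the steeper contrast was also the one with the larger share of reads in regions (13.7%, against 10.0%), and the part of that share in the drift was not tested.

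Of the 4 classifications compared within libraries (width, density, LPS level and LPS cut density), density of regions was the only 1 in which both GCM libraries stood on the same side of both UNTR libraries. Density was counted as the number of other tested regions with their midpoint within 50 kb, from 0 to 6 in the sparsest class to 17 to 36 in the densest. In all 4 pairings of a GCM with a UNTR library the median log2 difference was lowest in the sparsest class (-0.028, -0.026, -0.027 and -0.028) and highest in the densest (0.032, 0.044, 0.052 and 0.022). Within libraries the densest class exceeded the sparsest by 0.471 and 0.467 (log2 CPM) in UNTR and by 0.548 and 0.501 in GCM cultures. The groups did not overlap. They differed by 0.056, with an SD of this contrast of 0.003 between the UNTR and 0.034 between the GCM libraries, and the exact permutation p of 0.333 is the smallest this design allows. Read instead as the class median of each region's own change, densest minus sparsest, the contrast was 0.064. With neighbours counted within 200 kb, this second measure was 0.00085.

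The share of increases ran the other way. It was 1.65% in the sparsest class and 1.097% in the densest, while the share decreased went from 0.460% to 0.0708%. Increased regions outnumbered decreased ones 3.60 to 1 where regions were sparse and 15.5 to 1 where they were dense. Among regions with a hotspot in both LPS libraries, 387 were increased and 45 decreased in the sparsest class, and 200 and 8 in the densest. The share decreased was then 0.181% and 0.0415%. The median count rose over the same classes from 40.5 to 58.5. Sparse regions therefore held more of the changes in both directions at a lower depth, while the class as a whole shifted slightly down.

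Examples were at hand in both settings. With 6 neighbours, the region at 116169475 to 116169992 on chromosome 5 held 5.19 and 3.78 CPM untreated and 10.4 and 11.7 CPM with GCM (log2 change 1.27 ± 0.184, SE; edgeR, adjusted p = 0.000249). With 18 neighbours, the region at 29754416 to 29754717 on chromosome 20 held 1.34 and 1.82 CPM untreated and 4.30 and 5.90 CPM with GCM (1.77 ± 0.272, adjusted p = 0.000433, edgeR). Both were lost without GCM replicate 2. Of the decreased regions, that at 122144531 to 122144982 on chromosome 5, with 4 neighbours, held 4.66 and 5.33 CPM untreated and 1.72 and 2.46 CPM with GCM. That at 47959872 to 47960125 on chromosome 8, with 19 neighbours, held 3.13 and 3.36 CPM untreated and 1.23 CPM in both GCM libraries. All 4 were chosen among called regions in which the groups did not overlap.

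**Figure D3:**
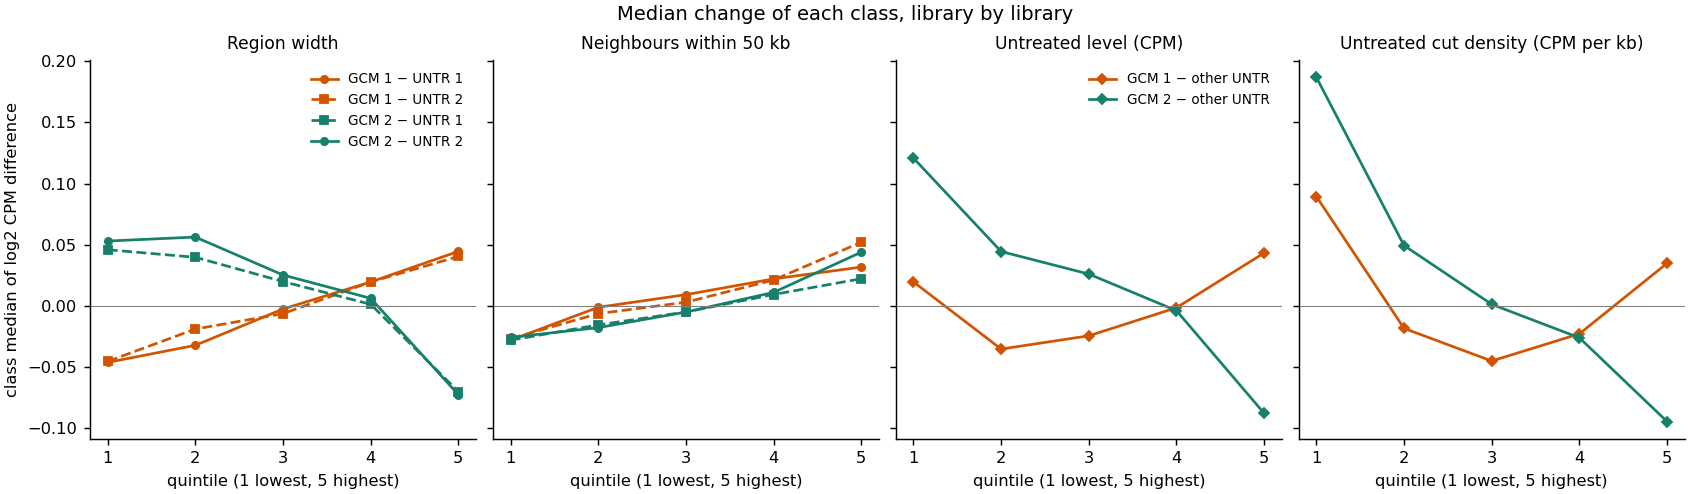
Class median of the log2 CPM difference between a GCM and a UNTR library (vertical axis) across 5 classes of width, of neighbours, and of untreated level and cut density, where the UNTR library that set the class was not the one subtracted. With width the GCM libraries run in opposite directions (-0.046 to 0.044 and 0.053 to -0.073), and with neighbours all 4 lines rise.

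Accessibility was classed in 2 ways, because a UNTR library that both sets the class and is subtracted would make low regions appear to rise. Only the first way gives a starting level. In the first, classes came from a UNTR library and the change from the other UNTR library. The median log2 difference was then 0.020 (GCM replicate 1) and 0.12 (GCM replicate 2) in the class of lowest level and 0.043 and -0.088 in the highest. Only GCM replicate 2 fell from the lowest to the highest class. By cut density, the level per kb of width, both GCM libraries had their highest median in the sparsest-cut class (0.089 and 0.19), and in the most densely cut class they stood at 0.035 and -0.095. The contrast of the most densely with the most sparsely cut class was -0.17, and -0.055 without GCM replicate 2. It was 0.010 with classes from the LPS libraries. A region enters the count table only with hotspots in both libraries of some group, and a region cut sparsely in UNTR can have entered through its GCM hotspots. In the most sparsely cut class, 54.3% (classes by UNTR replicate 1) and 47.4% (by UNTR replicate 2) of regions had a hotspot in neither UNTR library. The part of this entry rule in the contrast was not tested.

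In the second way, classes came from the LPS libraries. These hold the level after another stimulus and not a starting level. Increased regions had a median of 3.85 CPM in UNTR and 5.77 CPM in LPS libraries, and decreased regions 4.24 and 2.85 CPM. Regions with the lowest LPS cut density (1.74 to 10.6 CPM per kb) were increased in 1.96% and decreased in 0.756% of cases, and those with the highest (18.3 to 99.1 CPM per kb) in 0.938% and 0.0317%. The ratio of increased to decreased regions went from 2.59 to 29.6. Over classes of LPS level the share increased was highest, at 1.87%, in the fourth class and lowest, at 0.887%, in the fifth. When regions were limited to the 104609 with a hotspot in both LPS lists, which entered the table whatever GCM and UNTR did, 1330 of the increased (1.27% of the 104609) and 108 of the decreased regions (0.103%) remained. A refit of these regions alone called 1181 and 98. In these, the least densely cut class still had the highest share of increases, 1.86% against 0.940% in the most densely cut, but its share of decreases was 0.234%. The share of increases in the narrowest regions dropped from 0.903% to 0.442%.

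Wide regions with sparse cutting had the highest share of increases in the main fit, but not with whole-library scaling. With regions split into 3 classes of each measure those that were widest (503 bp or more) and least densely cut with LPS (under 11.98 CPM per kb) stood out: 163 of 5047 were increased, or 3.23%, and 30 were decreased, or 0.594%. Among the widest and most densely cut regions, 235 of 24657 were increased, or 0.953%, although their median count of 159 was above the 76.5 of the former. Of the sparsely cut wide regions with a hotspot in both LPS lists, 139 of 4517 (3.08%) were increased. The share was 4.72% with a block for replicate number and 2.83% with loess offsets, the highest in each of these fits. It was 0.535% when libraries were scaled to their whole totals. There fewer regions were called in all, and the narrow, sparsely cut regions came first with 0.582%. The split was not read in DESeq2 or without UNTR replicate 1, UNTR replicate 2 or GCM replicate 2.

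At the extremes of starting level, the region at 69914264 to 69914530 on chromosome 17 began at 1.43 and 0.981 CPM and reached 3.44 and 6.72 CPM with GCM. The region at 91268345 to 91269306 on chromosome 7 began at 11.7 and 11.8 CPM and reached 22.7 and 22.9 CPM. The GCM cultures differed from each other at the first and hardly at all at the second, where the log2 change was 0.96 ± 0.139 (SE; edgeR, 2 libraries per group, adjusted p = 0.000249). Of the decreased regions, that at 94693152 to 94693321 on chromosome 9 fell from 2.51 and 2.52 CPM to 0.983 and 0.737 CPM, and that at 344303 to 345094 on chromosome 12 from 15.0 and 12.9 CPM to 7.86 and 9.18 CPM. The latter kept a hotspot in all 6 lists. The largest rise among regions with at least 20 counts in each GCM library was at 24863950 to 24864166 on chromosome 14, which had no neighbour within 50 kb: 8 and 1 counts untreated became 25 and 30 counts (2.43 ± 0.407, adjusted p = 0.0011, edgeR). Its change was 4.15 without UNTR replicate 1 and 1.90 without UNTR replicate 2, where it lost the call (adjusted p = 0.0602, edgeR), and DESeq2 did not call it (adjusted p = 0.559). Among the large falls, the region at 47583310 to 47583518 on chromosome 13 also had no neighbour and went from 2.06 and 3.08 CPM to 1.11 and 0.655 CPM. This region and the one on chromosome 14 had no LPS hotspot. They entered the table through UNTR and through GCM hotspots, respectively.

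The 2 GCM cultures agreed in part. The difference of GCM replicate 1 from UNTR replicate 1 and that of GCM replicate 2 from UNTR replicate 2, which share no library, had a Pearson r of 0.398 and a Spearman rho of 0.373 over the 126284 regions. With the UNTR libraries exchanged r was 0.316. Regions are not independent replicates, and all libraries share the region definition. Limited to regions with a hotspot in both LPS lists, r was 0.30, and 0.219 with the UNTR libraries exchanged. Over all regions r was 0.547 in the lowest class of LPS cut density and 0.313 in the highest, but with a hotspot in both LPS lists these were 0.344 and 0.313, and the classes showed no order. By width r ran from 0.386 to 0.446 over all regions, but with a hotspot in both LPS lists it was 0.175 in the narrowest class, 0.431 in the fourth and 0.408 in the widest. The agreement of narrow and of sparsely cut regions was thus lower among regions that entered the table whatever GCM and UNTR did. From the sparsest to the densest class of neighbours r went from 0.451 to 0.334, and from 0.331 to 0.268 with both LPS hotspots. In the sparsely cut wide regions r was 0.593, and 0.568 with both LPS hotspots, while in the sparsely cut narrow regions it was 0.468 and 0.213.

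Regions chosen in a GCM culture alone were read in the other. The 1000 regions most raised in GCM replicate 1 over UNTR replicate 1 had a median log2 difference of 1.08 there. In GCM replicate 2 over UNTR replicate 2 they stood 0.68 above the median of all regions, 90.4% lay above that median, and 56.4% were raised past 1.5-fold, against 9.11% of all regions. The 1000 most raised in replicate 2 had a median of 1.46 there and stood 0.48 above the median in replicate 1, with 82.6% above it and 39.2% past 1.5-fold, against 4.57% of all. With the UNTR libraries exchanged, 82.3% and 80.7% of the 1000 most raised lay above the median in the other pair. Past 1.5-fold were 41.3% and 43.0%, against 6.99% and 7.66% of all. Among the regions tested, those most raised in either culture thus mostly lay above the median in the other, and 39.2% to 56.4% were past 1.5-fold there. Choosing the extreme regions of a pair makes their change smaller in the other pair, so the smaller size is not a result about the cultures. The 1000 most lowered in replicate 1 stood at -0.42 in replicate 2, with 78.0% below the median, and those most lowered in replicate 2 stood at -0.53 in replicate 1, with 86.7% below it. With the UNTR libraries exchanged these shares were 77.2% and 74.6%. All tested regions took part, also those that entered the table through hotspots in both GCM or both UNTR libraries. The reading was not repeated on regions with both LPS hotspots.

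The increases were larger in GCM replicate 2. Increased regions had a median log2 difference of 0.72 in GCM replicate 1 over UNTR replicate 1 and 0.93 in GCM replicate 2 over UNTR replicate 2. With the UNTR libraries exchanged these were 0.79 and 0.89. The regions were called from these same libraries. GCM replicate 1 exceeded GCM replicate 2 in 463 of the 1693 increased regions (27.3%), compared with 46.9% of all regions. Decreased regions had medians of -0.93 and -0.94, and of -1.08 and -0.83 for GCM replicates 1 and 2 with the UNTR libraries exchanged. GCM replicate 1 was the higher in 116 of these 292 (39.7%), so it was more often the lower at decreased regions too. The 46.9% of all regions is not matched for cut density. The median log2 difference of GCM replicate 1 from GCM replicate 2 was -0.11 in the lowest class of LPS cut density and 0.13 in the highest. Between the GCM libraries the SD of single regions was 0.322, the same as between the UNTR libraries.

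**Figure D4:**
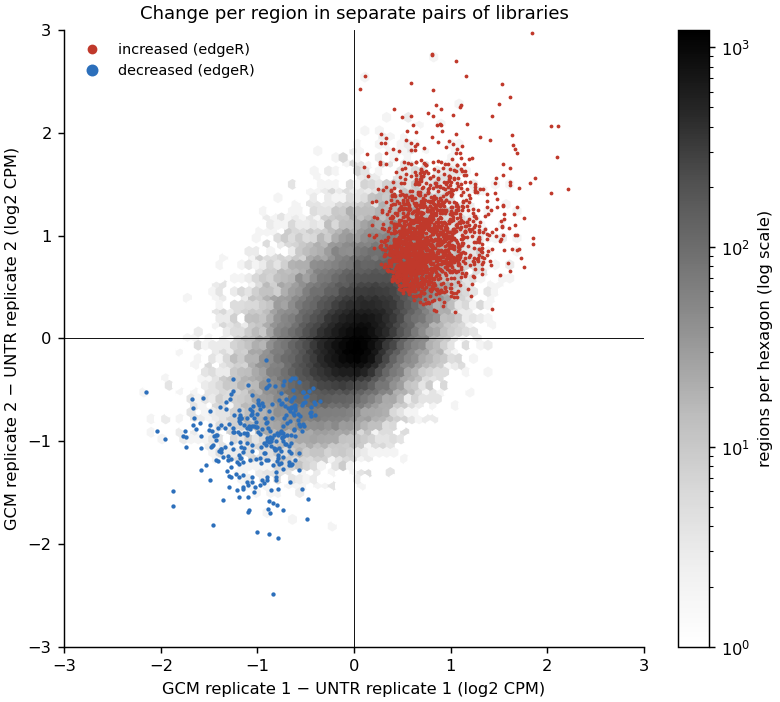
Log2 CPM difference of GCM replicate 1 from UNTR replicate 1 (horizontal) against that of GCM replicate 2 from UNTR replicate 2 (vertical), with grey for the number of regions per hexagon on a log scale and coloured points for regions called by edgeR. The cloud is tilted along the diagonal (Pearson r 0.398), and increased regions lie further out on the vertical axis (median 0.93) than on the horizontal one (0.72).

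Increased regions lay near each other, and decreased ones did not. Of the 1693 increased regions 716 had another increased region with its midpoint within 50 kb, or 42.3%, compared with 10.0% of all regions tested, 9.60% of those not called and 5 of the 292 decreased ones (1.71%). Of the decreased regions 6 had a decreased neighbour (2.05%, against 1.64% of all). Leaving out neighbours nearer than 10 kb, the shares for increased neighbours were 27.8% and 7.94%. The excess held at each density of regions: 30.3% against 5.14% in the sparsest class and 49.6% against 15.2% in the densest. It was 35.8% against 7.58% among regions with a hotspot in both LPS lists, and 21.6% against 2.43% with whole-library scaling. Without UNTR replicate 1 or GCM replicate 2 none of the 12 or 27 increased regions that remained called had such a neighbour, and without UNTR replicate 2 it was 4 of 86.

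Neighbouring regions also moved together when called and uncalled regions were taken alike. The change of a region in a pair of GCM and UNTR libraries was set against the change of the next region in the other pair, so that no library was shared. The correlation was 0.212 for 26916 adjacent regions under 1 kb apart, 0.165 at 1 to 5 kb, 0.137 at 5 to 20 kb, 0.124 at 20 to 100 kb and 0.107 beyond 100 kb. Between regions 100 places apart, at a median distance of 1.38 Mb, it was 0.025, and between regions 1000 places apart it was 0.0063. The correlation thus shrank with distance. It was not tested whether differences between libraries over broad stretches contribute.

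**Figure D5:**
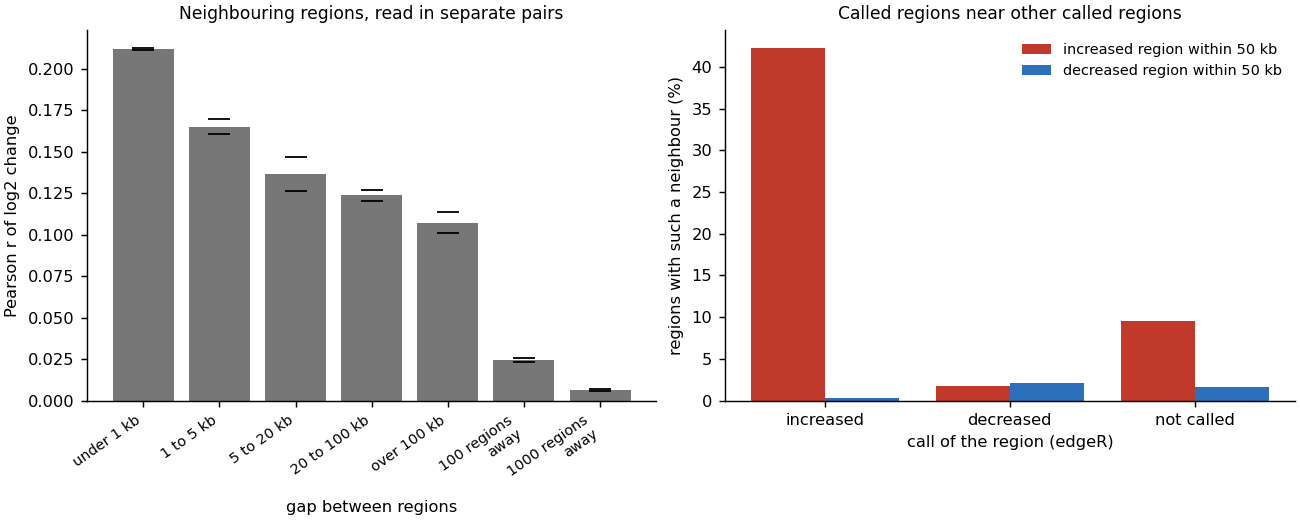
Left, correlation of GCM changes between regions by the distance separating them, with a bar for the mean and ticks for both ways of assigning the library pairs. Right, percent of increased, decreased and uncalled regions with an increased or a decreased region within 50 kb, where 42.3% of increased regions have an increased neighbour.

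Runs of increased regions, in which each lay within 50 kb of the next, numbered 290 and held 719 regions, and 90 of them had 3 or more. Decreased regions formed 3 runs, none longer than 2. The longest runs held 6 increased regions, and there were 4 of these. On chromosome 17, between 69666409 and 69730809 (64.4 kb), all 16 regions tested had a positive change. The 6 increased ones among them summed to 26.1 and 22.6 CPM untreated and 43.3 and 48.7 CPM with GCM. On chromosome 2, between 171133917 and 171201419 (67.5 kb), all 11 regions tested had a positive change. The 6 increased ones summed to 37.2 and 32.8 CPM untreated and 53.1 and 64.8 CPM with GCM. The uncalled regions in both stretches did not pass the test, and some did not separate the groups, such as that at 69697799 on chromosome 17 with 6.81 and 6.73 CPM untreated and 6.64 and 9.01 CPM with GCM. On chromosome 7, between 100702931 and 100782545 (79.6 kb), 15 of 19 regions had a positive change. The 6 increased ones summed to 50.6 and 47.1 CPM untreated and 74.6 and 84.3 CPM with GCM. On chromosome 16, between 24915231 and 25017363 (102 kb), all 15 had a positive change. The 6 increased ones summed to 37.6 and 32.2 CPM untreated and 57.1 and 60.5 CPM with GCM. No region in the 4 stretches was decreased, and GCM replicate 2 was the higher GCM library in each sum. Since runs were picked for holding increased regions, their sums are descriptions and carry no test.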

How the data were processed

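Cut ends were counted by the authors, who deposited raw counts per region for each library (table header). Per the submitters' processing notes, Bowtie 1.1.2 and cutadapt 1.8.3 were used with genome build rn5, beside edgeR, DiffBind, Picard 1.95 and SAMtools; their order and settings are not given in the sources used here. The authors' deposited CPM are scaled to whole libraries and served only to recover whole-library totals (all came out whole, to within 0.001 of a count). The deposited hotspot lists carry a score of undefined meaning that was not used; a region had a hotspot where they overlapped by at least 1 bp. The deposited fold changes and 14 further columns of per-library values were not used.

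All 6 libraries entered a quasi-likelihood fit in edgeR 4.0.16 (R 4.3.3), with the default filter at a minimum count of 10, TMM factors from 0.986 to 1.01, two-sided tests, and Benjamini-Hochberg adjusted p-values with a threshold of 0.05. Counts varied between cultures with a common biological coefficient of 5.63%. Differences between libraries used log2 CPM with a prior count of 2. The SE was the log2 change divided by the square root of F. Interval work and summaries used bedtools 2.31.1, Python 3.11.15, pandas 2.3.3, numpy 2.4.6 and scipy 1.17.1. The count test and the class summaries were tested on simulated data.

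Named regions had an adjusted p under 0.05 and groups that did not overlap: the 6 with the smallest p in each direction, the smallest p in the outer classes of width, density and starting level, the 3 largest changes in each direction with at least 20 counts per library of the higher group, and the longest runs. The classes, rules and lists were chosen with earlier results of these data known, and the restriction to regions with a hotspot in both LPS lists, the summed UNTR sample and all variations of the share of increased neighbours were added after seeing the data. The runs tied at 6 regions are given in full, although the rule asked for 3. Of the 13 increased and 13 decreased regions named, 3 and 11 did not have a hotspot in both LPS lists. These entered the table through GCM or UNTR hotspots, in the group where they were high. No rn5 genome or annotation was used here, so planned gene lists and motifs were not examined. Alternatives were other scalings (DESeq2 size factors, no composition correction, whole-library totals, loess offsets), filters, region sets, tests (likelihood ratio, DESeq2 1.42.0), a replicate block, and leaving out each library.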

Additional observations from a re-analysis of the deposited data

How the results depend on the processing

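In edgeR the number of increased regions was 365 with whole-library totals, 694 in a refit of the regions where all 6 lists had a hotspot, and 874 with the UNTR libraries summed as 1 sample, and DESeq2 called 3. Leaving out single libraries gave 12 to 1469, with 12 without UNTR replicate 1, 27 without GCM replicate 2, 86 without UNTR replicate 2 and 1469 without GCM replicate 1. Decreased regions numbered 64 with whole-library totals, 527 by the likelihood ratio test, 449 with only the 4 libraries, 34 and 98 in refits of the regions where all 6 or both LPS lists had a hotspot, and 129 with summed UNTR libraries. Leaving out single libraries gave 0 to 104 decreased regions, with edgeR calling 0 without UNTR replicate 1 (5874 at an unadjusted p under 0.05), 1 without UNTR replicate 2, 6 without GCM replicate 2 and 104 without GCM replicate 1. DESeq2 called 0 decreased (1090 at an unadjusted p under 0.05). The replicate block gave 2570 increased and 763 decreased regions. The labels do not say that numbers mark shared cultures, and over regions the differences between GCM replicates and between UNTR replicates had an r of 0.100, so the numbers were not taken as pairs, and whether they mark pairs is not known. The density contrast (0.064) was 0.053 with loess offsets, 0.050 from summed CPM, 0.051 over 3 classes, 0.056 with hotspots in all 6 lists, 0.075 and 0.00085 with windows of 10 and 200 kb, and 0.054 to 0.075 leaving out single libraries. The cut density contrast was -0.17 by UNTR classes and 0.010 by LPS classes. Agreement was 0.398, 0.316 with UNTR libraries exchanged and 0.30 with hotspots in both LPS lists. The share of increased regions with an increased neighbour was 42.3%, 21.6% with whole-library totals, 35.8% with hotspots in both LPS lists, 27.8% at 10 to 50 kb, 39.8% with loess offsets, 45.6% by the likelihood ratio test, 45.1% with only the 4 libraries, 46.4% with the replicate block, and 0% to 39.1% leaving out single libraries. Causes were not tested. For the named regions 345 recomputed values stayed on the same side of the threshold, 82 lost the call and none changed direction. The losses were uneven. DESeq2 lost 10 of the 13 increased and all 13 decreased regions named. Whole-library totals lost 1 increased region (91268345 on chromosome 7) and 2 decreased ones (233348359 on chromosome 1 and 344303 on chromosome 12). The other losses came with a library left out. Medians of 36 to 64 counts per region limit which changes could be detected.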

Other observations

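Increased regions were unevenly spread over chromosomes. They made up 0.209% of the regions tested on chromosome 12 (7 of 3346), 0.568% on chromosome 10 and 0.72% on chromosome 19, compared with 2.00% on chromosome 13, 1.84% on chromosome 2 and 2.04% on chromosome X (40 of 1958). On chromosome 12 the median log2 difference was below 0 in all 4 pairings of a GCM with a UNTR library (-0.044, -0.10, -0.058 and -0.087). On chromosome 2 it was above 0 in all 4 (0.041, 0.059, 0.066 and 0.041). Over the 21 chromosomes the percent increased and the mean number of neighbours within 50 kb had a Pearson r of -0.635 and a Spearman rho of -0.613, as a description of chromosomes that share the same libraries.

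The tightest of the longer runs was on chromosome 11, between 19385960 and 19401139 (15.2 kb). All 5 regions tested there were increased, and their summed level was 15.9 and 16.7 CPM untreated and 27.3 and 37.4 CPM with GCM. This run was chosen after its values were seen. In the LPS libraries the same regions summed to 26.0 and 23.0 CPM.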
